A study of Mus musculus with 12 samples.

Results

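The 37 genes described here carry glucose through the cell. They were taken from a fixed list of symbols, chosen with earlier results of these data known, and fall into 5 steps. Glucose transport has Slc2a1, Slc2a3 and Slc2a6. Glycolysis and its regulators are Hk1, Hk2, Hk3, Gpi1, Pfkl, Pfkm, Pfkp, Pfkfb3, Pfkfb4, Aldoa, Aldoc, Tpi1, Gapdh, Pgk1, Pgam1, Eno1, Eno2 and Pkm. Lactate production and transport has Ldha, Ldhb, Slc16a1 and Slc16a3. The entry of pyruvate into mitochondrial oxidation (pyruvate entry) has Pdk1, Pdk2, Pdk3, Pdk4, Pdha1 and Pdhb. The pentose phosphate pathway has G6pdx, Pgd, Pgls, Tkt, Taldo1 and Rpia. Each gene was read from a probe set annotated to that symbol alone, the brightest by mean signal where there were several. Of the 37 genes, 33 had such a probe set, and 32 were bright enough to enter the 15273 genes tested, out of 19938 genes with a probe set in all. Pdk4, just under the limit on dim signals of 5.36, was measured and not tested. All 25 probe sets of Gapdh carried other symbols as well, and no probe set was listed under Gpi1, Eno1 or G6pdx alone, so these 4 genes were not analysed here.

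RNA came from cultured primary microglia, the resident macrophages of the brain, of wild-type mice and of mice labelled as knockout for Tlr4, the receptor for bacterial lipopolysaccharide. Cells of each genotype were kept for 24 h under hypoxic or hypoglycemic conditions (ischemia) or under normal oxygen and glucose (control), and every culture then had 24 h of normal conditions (reperfusion), so all signals describe cells after recovery. There were 4 groups of 3 Affymetrix Mouse Gene 1.0 ST arrays, numbered 1 to 3 in each. All values are log2 signals, and a change is the difference of 2 group means on that scale. Nothing in the labels ties the arrays of a group to different cultures or animals, so p-values cover only the spread seen between them, which may be technical. In bulk RNA such as this, fewer cells of a type and less RNA per cell cannot be told apart.

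The source name of the wild-type ischemia arrays reads as control conditions, while their titles mean hypoxia by the key of the series, and the titles were followed. The signal of Tlr4 was 8.76 ± 0.12 (SD, n = 3) in wild-type control, 8.71 ± 0.26 in wild-type ischemia, 8.66 ± 0.29 in knockout-labelled control and 8.76 ± 0.17 in knockout-labelled ischemia arrays. It did not separate the genotypes, so every genotype direction rests on the labels; the labels do not state which part of Tlr4 was deleted. Of 12 microglia and macrophage markers, 11 were measured and all 11 were above the dim limit, with a mean of 9.84 to 10.5 on each array. However, of the markers of resting microglia, Tmem119 (6.51) was near the array medians of 6.30 to 6.40 and P2ry12 (5.75) was below them. The extraction protocol names myocytes, and the mean of 8 muscle markers was 6.12 to 6.38 on each array. Knockout-labelled control array 3 correlated least with the others (median r over all probe sets 0.976, against at least 0.982 for every other array), so counts are also given without its pair.

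Glycolysis splits glucose into pyruvate in the cytosol and yields ATP without oxygen. Pyruvate is then reduced to lactate and exported, or enters mitochondria, where pyruvate dehydrogenase oxidises it. The pyruvate dehydrogenase kinases (Pdk genes) switch this enzyme off. The pentose phosphate pathway branches off at glucose 6-phosphate and supplies NADPH and ribose. Many of these genes are textbook targets of hypoxia-inducible factor, which acts while oxygen is low, and inflammatory activation of macrophages is known to raise glycolysis.

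Averaged over both genotypes, 7 genes passed as modestly more abundant after ischemia and reperfusion, by 1.17-fold to 1.38-fold. This held only when each ischemia array was compared with the control array of the same number. The pairing was taken from correlations in these same values and not from the labels, and without it 0 of the 32 genes passed. Among the 7 were the glucose transporter Slc2a1, the glycolytic enzymes Pfkp, Aldoc and Tpi1, and the lactate dehydrogenase subunit Ldha. The remaining ones were the pyruvate dehydrogenase kinases Pdk1 and Pdk3. The other genes of these steps and the pentose phosphate genes did not pass this paired test. The 7 are 21.9% of the 32 tested, and 0 of the 32 were lower; over all genes 12.5% were called in the paired fit, 9.11% higher and 3.35% lower. The median change of the 32 genes was 0.14, with 24 above 0 and 8 below, while the median over all genes tested was close to 0. By step the median was 0.11 for transport, 0.13 for glycolysis, 0.22 for lactate, 0.23 for pyruvate entry and -0.02 for the pentose phosphate pathway. The background of all genes tested includes dimmer ones. For the 11065 genes above the 50th percentile of all probe sets, the median change was 0.07 for wild-type and 0.03 for knockout-labelled cells. The part of signal level in the rise of the listed genes was not tested.

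These calls depended on pairing the arrays. In the linear model of limma with 1 mean per group and no pairing, 0 of the 32 genes passed a Benjamini-Hochberg adjusted p of 0.05 over all genes (background 0.00655%), and 9 had an unadjusted p under 0.05 (21.2% of all genes did). The paired fit adds a term for each genotype and array number, and the intervals of averaged changes given for single genes are from it unless stated otherwise. Calls over all genes moved with the same settings, from 1904 with every pair to between 371 and 2889 without 1 pair. Without knockout-labelled pair 3, which holds the array that stood apart, 5 genes of the list passed, 4 of them among the 7 (673 over all genes). Without wild-type pair 1 or knockout-labelled pair 2, only Pdk1 of the list passed (406 and 371 over all genes), and without wild-type pair 3 Hk2, Pdk1 and Pdk3 did (1289). Without wild-type pair 2 the count was 5 (1388 over all genes) and without knockout-labelled pair 1 it was 7 (2889). After a further quantile normalization of the deposited values 3 passed, Aldoc, Pdk1 and Pdk3 (1157 over all genes), and with each array centred on its median 12 did, the 7 among them (2581). Pdk1 alone of the 7 passed in all 12 other versions of the paired fit that were run, 6 without a pair and 6 with another filter, scaling, probe set rule or spread estimate, with adjusted p-values from 0.00423 to 0.0360.

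**Figure D1:**
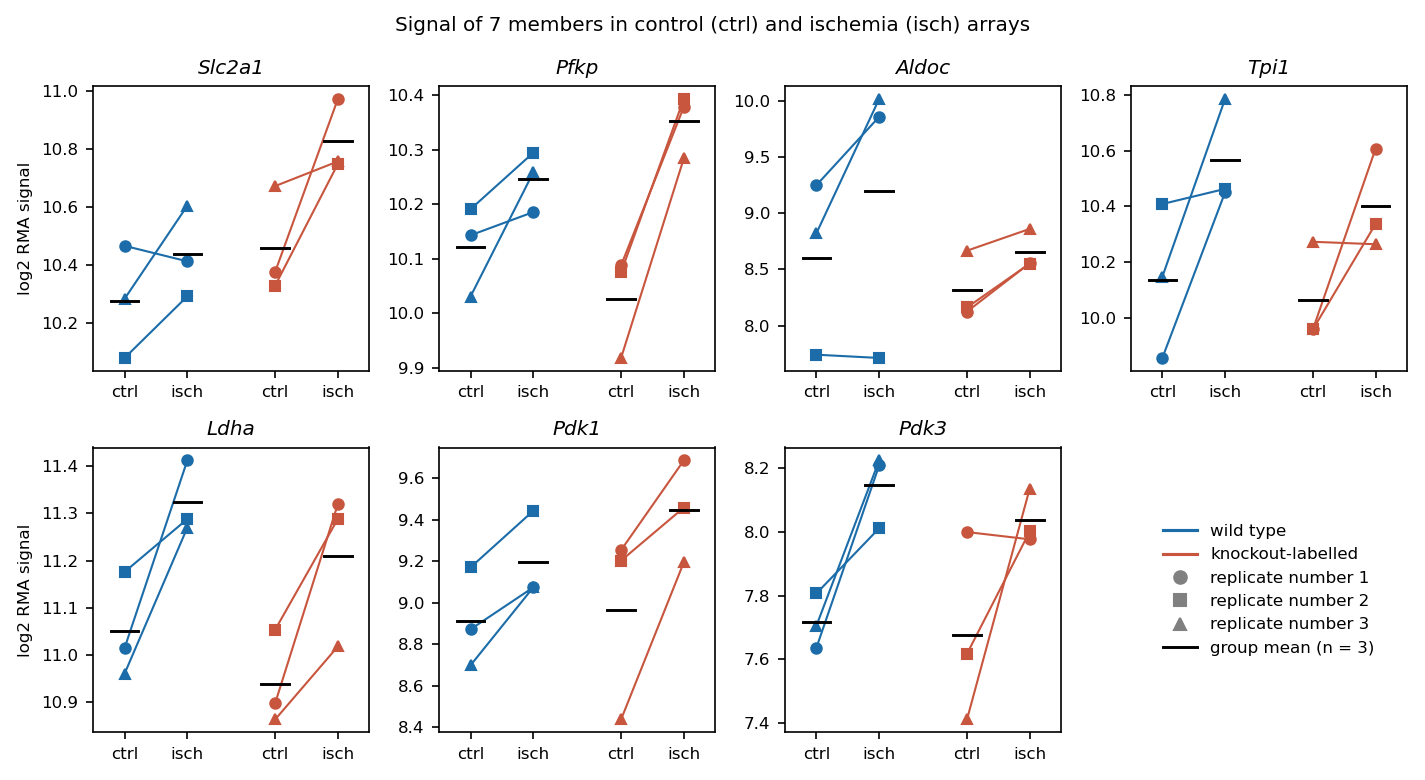
Log2 signal of the 7 genes that passed the paired test, on each of the 12 arrays, with control (ctrl) and ischemia (isch) arrays of the same number joined by a line and group means (n = 3) as black bars. All 6 lines rise for Pfkp, Ldha and Pdk1; 1 line of 6 falls for Slc2a1, Aldoc, Tpi1 and Pdk3, and the Aldoc lines start far apart in the wild type (7.74 to 9.25).

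Promoter sequence was set beside these values only as a description, because the core of the hypoxia response element is short enough to look for. RefSeq promoter windows (GRCm38.p6) were available for 36 of the 37 genes, and the 250 bases before each start site were searched on both strands for ACGTG and GCGTG, counting overlapping matches separately. At least 1 window of 33 of the 36 genes held a match (91.7%), against 56.4% of the 12054 tested genes with a window and 41.5% of all 27025 genes in the table. Genes with several windows have more chances of a match; counted by window, 41 of 51 member windows (80.4%) and 38.6% of all windows held one. Both patterns contain CG, and the sets compared were not matched for base composition. A match is a description of letters and not a binding site. Of the 7 genes called in the paired fit, Tpi1 had no match, and the windows of Pfkp and Pdk3 held 3 and 4. Among the genes with a window that were not called, all but Gpi1 and Eno2 held a match too. Matches therefore did not set the called genes apart from the rest of the list. A set of 3 windows is shown, for a transporter, an enzyme and a kinase of the list, with matches in capitals: Slc2a1 at chr4:119108495-119108744 (plus strand, 2 matches), the first Ldha window at chr7:46845554-46845803 (plus strand, 5 matches) and the first Pdk1 window at chr2:71872974-71873223 (plus strand, 1 match).
Slc2a1: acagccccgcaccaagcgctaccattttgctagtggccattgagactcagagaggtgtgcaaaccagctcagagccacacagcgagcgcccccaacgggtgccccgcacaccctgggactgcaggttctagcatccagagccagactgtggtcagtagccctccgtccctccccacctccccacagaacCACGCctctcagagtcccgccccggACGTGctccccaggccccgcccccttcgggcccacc
Ldha: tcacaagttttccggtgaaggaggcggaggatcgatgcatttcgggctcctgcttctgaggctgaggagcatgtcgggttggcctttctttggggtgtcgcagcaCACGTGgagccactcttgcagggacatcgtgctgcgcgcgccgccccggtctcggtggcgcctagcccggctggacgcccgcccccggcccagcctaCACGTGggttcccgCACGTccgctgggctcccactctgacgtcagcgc
Pdk1: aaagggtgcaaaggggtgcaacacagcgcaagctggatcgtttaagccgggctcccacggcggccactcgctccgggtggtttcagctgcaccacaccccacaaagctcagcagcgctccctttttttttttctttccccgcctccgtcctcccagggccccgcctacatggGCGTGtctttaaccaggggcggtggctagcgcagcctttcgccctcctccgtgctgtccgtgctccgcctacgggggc
The Ldha window carries most matches of the 3, and in it both CACGTG stretches count once on each strand.

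Slc2a1 encodes GLUT1, the main basal glucose transporter of glial cells. Its signal was 10.47, 10.08 and 10.28 in wild-type control arrays 1 to 3 and 10.41, 10.29 and 10.61 in the ischemia arrays of the same numbers. In the knockout-labelled cells it was 10.38, 10.33 and 10.67 in control and 10.97, 10.75 and 10.76 after ischemia. The wild-type groups overlapped and the knockout-labelled groups did not. Averaged over the genotypes the change was 0.26 ± 0.08 (SE, 95% interval 0.09 to 0.44, adjusted p = 0.0479 in the paired fit of limma), with 5 of 6 pairs higher. Without pairing the adjusted p was 0.170. Slc2a1 is also abundant in brain endothelium; the mean of 6 endothelial markers, 3 of them above the dim limit, was 6.12 to 6.42 on each array. Among them only Flt1 was bright, with a mean of 9.55, and it was higher after ischemia in every pair, by 0.34 to 0.60. None of the other endothelial markers was higher in every pair. The part of endothelial cells in the change was not tested.

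The other transporters did not pass. Slc2a6, a transporter of myeloid cells, was at 8.70, 8.68 and 9.05 in wild-type control and 8.85, 8.63 and 9.52 in wild-type ischemia arrays. It was at 8.35, 8.58 and 8.60 in knockout-labelled control and 8.62, 8.41 and 8.59 in knockout-labelled ischemia arrays, so control and ischemia overlapped in both genotypes. Slc2a3, the high-affinity transporter GLUT3 of neurons and activated leukocytes, was dim, at 5.95, 6.12 and 5.63 in wild-type control, 5.68, 5.98 and 5.54 in wild-type ischemia, 5.95, 5.86 and 5.79 in knockout-labelled control and 6.26, 5.79 and 5.63 in knockout-labelled ischemia arrays. The averaged changes were 0.11 (interval -0.07 to 0.29) for Slc2a6 and -0.07 (-0.23 to 0.09) for Slc2a3. Slc2a3 was lower in all 3 wild-type pairs, with differences of -0.27, -0.13 and -0.09.

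Glycolysis starts with the hexokinases, which trap glucose as glucose 6-phosphate. Hk2, the inducible form, gave 9.43, 8.94 and 9.45 in wild-type control, 9.55, 9.44 and 9.33 in wild-type ischemia, 8.99, 8.91 and 8.75 in knockout-labelled control and 9.28, 9.27 and 9.07 in knockout-labelled ischemia arrays. The knockout-labelled groups did not overlap and the wild-type groups did. Its averaged change of 0.24 missed the threshold in the paired fit (adjusted p = 0.0588). Hk3, the form of myeloid cells, had an averaged change of 0.10. Hk1, the housekeeping form, was 0.14, but this value is uncertain. Its brightest probe set (mean 12.64) correlated at a median of 0.781 over the arrays with 16 probe sets annotated to both Rpl17, a ribosomal protein gene, and Hk1, while a second Hk1 probe set (mean 8.52) correlated with it at -0.167 and changed by 0.18 for wild type and 0.05 for knockout-labelled cells.

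Phosphofructokinase commits sugar to glycolysis and has 3 subunit genes. Pfkp, the platelet form, was at 10.14, 10.19 and 10.03 in wild-type control, 10.19, 10.29 and 10.26 in wild-type ischemia, 10.09, 10.08 and 9.92 in knockout-labelled control and 10.38, 10.39 and 10.28 in knockout-labelled ischemia arrays. It was higher after ischemia in all 6 pairs and did not overlap in the knockout-labelled cells. The averaged change was 0.22 ± 0.07 (SE, interval 0.08 to 0.36, adjusted p = 0.0404 paired and 0.141 unpaired, limma). Pfkl, the liver form, had an averaged change of 0.18 (0.00 to 0.36) and Pfkm, the muscle form, of 0.04 (-0.10 to 0.19); neither passed, and the difference between the 3 was not tested. Pfkfb3 and Pfkfb4, which make and break the phosphofructokinase activator fructose 2,6-bisphosphate, changed by -0.06 and 0.13 and did not pass. Pfkfb4 was at 8.29 to 8.42 in wild-type control and 8.54 to 8.64 in wild-type ischemia arrays, without overlap, and at 7.94 to 8.44 and 8.22 to 8.25 in the knockout-labelled cells.

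Aldolase C had the largest averaged change of the list and the largest spread between arrays. Aldoc was at 9.25, 7.74 and 8.82 in wild-type control and 9.86, 7.71 and 10.02 in wild-type ischemia arrays. In the knockout-labelled cells it was at 8.12, 8.16 and 8.67 in control and 8.55, 8.55 and 8.86 after ischemia. Both wild-type arrays numbered 2 were more than 1 log2 unit below the other 4 wild-type arrays, and control and ischemia overlapped in both genotypes. The averaged change was 0.46 ± 0.12 (SE, interval 0.22 to 0.71, adjusted p = 0.0237) in the paired fit of limma, and the unpaired interval was -0.32 to 1.25 (adjusted p = 0.445). The paired change was 0.62 without wild-type pair 2 and 0.31 without wild-type pair 3 (adjusted p = 0.0589, limma). Aldoc is known as an astrocyte-enriched aldolase. The mean of 7 astrocyte markers, 5 of them above the dim limit, was 6.11 and 5.90 on the wild-type arrays numbered 2. On the other 4 wild-type arrays it was 5.96 to 6.21. Among these markers only Aldh1l1 was bright, with a mean of 8.16. It was higher after ischemia in each wild-type pair, by 0.34 to 0.47, and the other astrocyte markers were lower in each. The mean of the microglia and macrophage markers was highest on the wild-type arrays numbered 2 (10.5 on both). The part of these cell types in the Aldoc values was not tested. Aldoa, the aldolase found in most cells, had an averaged change of 0.03 (-0.12 to 0.19).

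Tpi1, triose phosphate isomerase, was at 9.85, 10.41 and 10.15 in wild-type control, 10.45, 10.46 and 10.79 in wild-type ischemia, 9.96, 9.96 and 10.27 in knockout-labelled control and 10.61, 10.34 and 10.26 in knockout-labelled ischemia arrays. The wild-type groups did not overlap, while the knockout-labelled groups did through the arrays numbered 3. Its averaged change was 0.39 ± 0.10 (SE, interval 0.18 to 0.59, adjusted p = 0.0236 paired and 0.144 unpaired, limma). Enzymes further down the pathway did not pass when averaged. Pgk1, which makes the first ATP of glycolysis, changed by 0.14, the mutase Pgam1 by 0.13, Eno2, the neuron-enriched enolase, by 0.13, and the pyruvate kinase Pkm by -0.12 (-0.26 to 0.02). The mean of 7 neuron markers, 3 of them above the dim limit, was 5.19 to 5.60 on each array. Glycolytic enzymes have many near-identical pseudogene copies, and signals of Tpi1, Pgk1, Pgam1, Ldha and Aldoa may include them. For Pgk1 and also for Pgam1, 2 of the 3 probe sets held identical values.

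Ldha, the lactate dehydrogenase subunit that favours lactate formation, was at 11.01, 11.18 and 10.96 in wild-type control and 11.41, 11.29 and 11.27 in wild-type ischemia arrays, without overlap. In the knockout-labelled cells it was at 10.90, 11.05 and 10.86 in control and 11.32, 11.29 and 11.02 after ischemia, where ischemia array 3 lay just under control array 2. All 6 pairs were higher. The averaged change was 0.27 ± 0.07 (SE, interval 0.12 to 0.42, adjusted p = 0.0272 paired and 0.141 unpaired, limma). The change was 0.27 in each genotype, and the interval of their difference was -0.30 to 0.30. Ldhb, the subunit that favours lactate use, had an averaged change of 0.10 (-0.07 to 0.26); a second, poorly matching probe set (r = -0.117) changed by 0.06 and -0.09 in the 2 genotypes.

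The monocarboxylate transporters carry lactate across the membrane. Slc16a3 (MCT4), the exporter of highly glycolytic cells, was at 8.94, 8.68 and 8.94 in wild-type control, 9.30, 8.74 and 9.17 in wild-type ischemia, 8.81, 8.87 and 9.10 in knockout-labelled control and 9.27, 9.20 and 9.02 in knockout-labelled ischemia arrays. Slc16a1 (MCT1), which moves lactate both ways, was at 8.45, 8.35 and 8.25 in wild-type control, 8.47, 8.13 and 8.40 in wild-type ischemia, 8.37, 8.10 and 7.87 in knockout-labelled control and 8.62, 8.67 and 8.42 in knockout-labelled ischemia arrays. Of these groups, only the Slc16a1 groups of the knockout-labelled cells did not overlap. Both had an averaged change of 0.22 and missed the threshold in the paired fit (adjusted p = 0.0788 for Slc16a3 and 0.0686 for Slc16a1).

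Pyruvate dehydrogenase kinases switch off pyruvate dehydrogenase inside the mitochondria by phosphorylating the E1 subunit that Pdha1 encodes. Pdk1, the best known hypoxia-induced member, was at 8.87, 9.17 and 8.70 in wild-type control, 9.07, 9.44 and 9.07 in wild-type ischemia, 9.25, 9.20 and 8.44 in knockout-labelled control and 9.69, 9.46 and 9.19 in knockout-labelled ischemia arrays. Control and ischemia overlapped in both genotypes because the numbered pairs sat at different levels, and all 6 pairs were higher after ischemia, by 0.20 to 0.76. The averaged change was 0.38 ± 0.08 (SE, interval 0.22 to 0.55, adjusted p = 0.0102 paired and 0.191 unpaired, limma), and without knockout-labelled pair 3 it was 0.31.

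Pdk3 was at 7.64, 7.81 and 7.71 in wild-type control, 8.21, 8.01 and 8.23 in wild-type ischemia, 8.0, 7.62 and 7.41 in knockout-labelled control and 7.98, 8.0 and 8.14 in knockout-labelled ischemia arrays. The wild-type groups did not overlap, and in the knockout-labelled cells control array 1 lay above ischemia array 1. The averaged change was 0.40 ± 0.09 (SE, interval 0.20 to 0.59, adjusted p = 0.0175 paired and 0.139 unpaired, limma). Pdk4, the kinase linked to fasting and fat use, was listed at 5.21 to 5.45 in wild-type control and 5.01 to 5.57 on the other arrays and was not tested. The enzyme itself, Pdha1 and Pdhb, had averaged changes of 0.17 and 0.23 with paired adjusted p-values of 0.119 and 0.0809. Pdhb was at 8.73, 9.14 and 9.26 in wild-type control, 9.10, 9.21 and 9.16 in wild-type ischemia, 9.06, 8.74 and 9.03 in knockout-labelled control and 9.31, 9.40 and 9.18 in knockout-labelled ischemia arrays, with overlap in the wild type and none in the knockout-labelled cells.

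**Figure D2:**
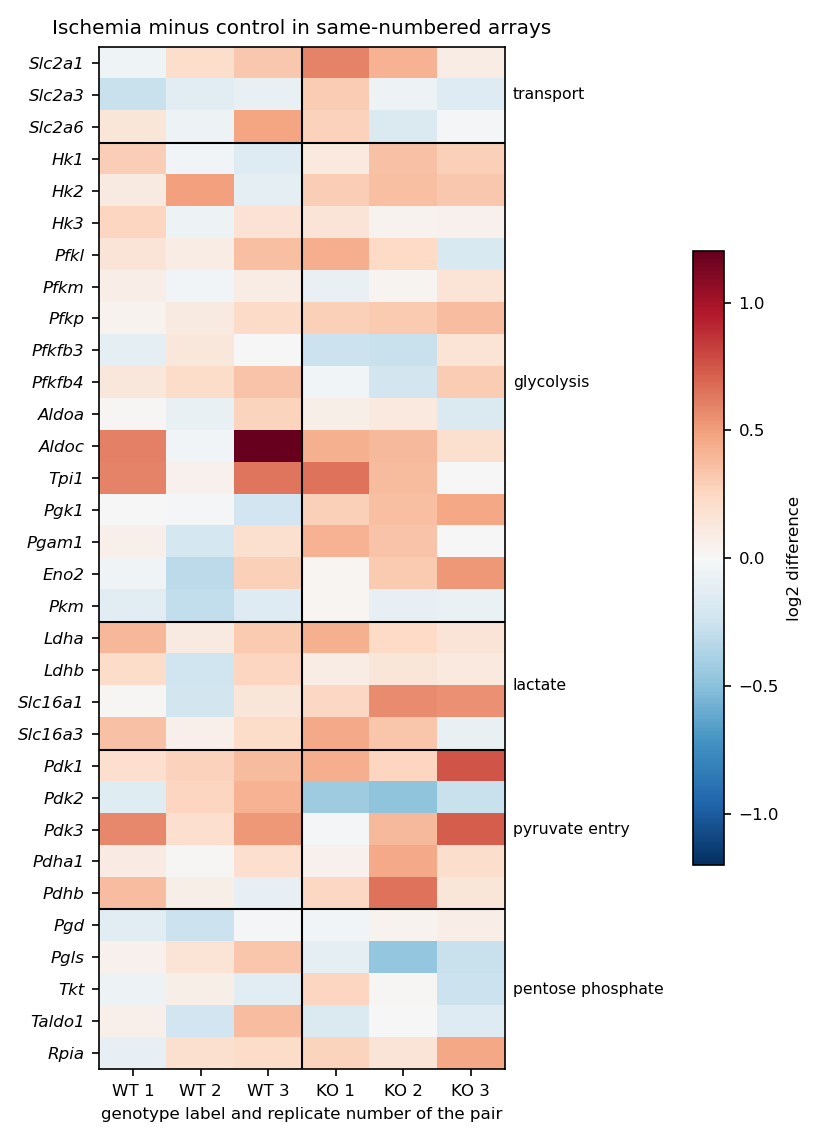
Ischemia minus control (log2 difference, colour) for the 32 tested genes in each of the 6 same-numbered pairs, wild type (WT) left and knockout-labelled (KO) right, with horizontal lines between the 5 steps. Pfkp, Ldha, Pdk1 and Pdha1 are above 0 in all 6 pairs; Pdk2 and Pgls are below 0 in the 3 knockout-labelled pairs and, except Pdk2 in pair 1, above 0 in the wild-type pairs.

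Pair by pair, the median change of the 32 genes was 0.07, 0.03 and 0.23 in the wild-type pairs 1 to 3 and 0.25, 0.24 and 0.13 in the knockout-labelled pairs, while the median over all genes stayed between -0.02 and 0.04. Only 17 of the 32 genes were higher in wild-type pair 2, against 20 to 25 in the other 5 pairs. Pfkp, Ldha, Pdk1 and Pdha1 were higher in all 6 pairs, which is 12.5% of the 32 and close to the 10.7% of all genes that did so, and 0 were lower in all 6 (6.36% of all genes).

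The pentose phosphate genes gave no call in any comparison of the deposited values, with or without pairing; with each array centred on its median, Rpia passed in the averaged paired fit. Rpia, which makes ribose 5-phosphate, had the largest averaged change, 0.20 (paired adjusted p = 0.0807). It was at 8.29, 7.69 and 8.17 in wild-type control, 8.19, 7.89 and 8.40 in wild-type ischemia, 7.75, 7.83 and 7.59 in knockout-labelled control and 8.01, 7.99 and 8.05 in knockout-labelled ischemia arrays, and only the knockout-labelled groups did not overlap. Pgd, which makes NADPH in the oxidative branch, was at 12.23, 11.93 and 12.22 in wild-type control, 12.10, 11.67 and 12.20 in wild-type ischemia, 12.09, 12.05 and 12.09 in knockout-labelled control and 12.06, 12.09 and 12.17 in knockout-labelled ischemia arrays. Its averaged change was -0.05 (-0.20 to 0.09). Tkt and Taldo1, the transferases that link the branch back to glycolysis, both changed by -0.02, with paired intervals of -0.18 to 0.15 and -0.19 to 0.15.

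Within the wild type alone, ischemia changed none of the 32 genes past the threshold. The limma fit without pairing called 0 of them (background 0.0131%, 2 genes), with 3 at an unadjusted p under 0.05 against 14.7% of all genes, and the paired fit also called 0 (background 3.73%), with 5 at an unadjusted p under 0.05 against 24.1%. The changes ran from -0.19 for Pkm to 0.59 for Aldoc, with a median of 0.11 and 25 of 32 above 0. The median over all genes was 0.01, and over genes above the 50th percentile of all probe sets it was 0.07. The smallest paired adjusted p-values were 0.0607 for Aldoc, 0.0758 for Pdk3 (change 0.43) and 0.0886 for Tpi1 (0.43). The control and ischemia groups did not overlap for 4 genes, all higher: Pfkfb4, Tpi1, Ldha and Pdk3. Over all genes 9.38% were higher and 12.3% lower without overlap.

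In the knockout-labelled cells the median change was 0.24, with 27 of 32 genes above 0, and the median over all genes was close to 0. Over genes above the 50th percentile of all probe sets the median was 0.03. The limma fit without pairing called 0 of the 32, and 0 of all genes (0%), with 9 at an unadjusted p under 0.05 against 8.73% of all genes. The paired fit called 0 as well (background 0.648%), with 17 at an unadjusted p under 0.05 against 19.2%. The smallest paired adjusted p-values were 0.0580 for Pdk1 (change 0.48), 0.0671 for Slc16a1 (0.45) and 0.0819 for Pgk1 (0.37). Slc2a1, Hk2, Pfkp, Slc16a1, Pdhb and Rpia, 6 genes, were higher without overlap, and 0 were lower (7.94% and 6.36% of all genes). A set of 15 genes, 46.9%, were higher in all 3 knockout-labelled pairs (20.8% of all genes). Hk1, whose probe set is uncertain, counts among these 15 and among the 17 of the paired fit. In all 3 wild-type pairs 10 genes, 31.2%, were higher (25.8% of all genes). Pdk2 and Pgls, 2 genes, were lower in all 3 knockout-labelled pairs (18.7% of all genes), and Slc2a3, Pkm and Pgd, 3 genes, in all 3 wild-type pairs (22.9%). Without knockout-labelled control array 2 the median change was 0.16.

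**Figure D3:**
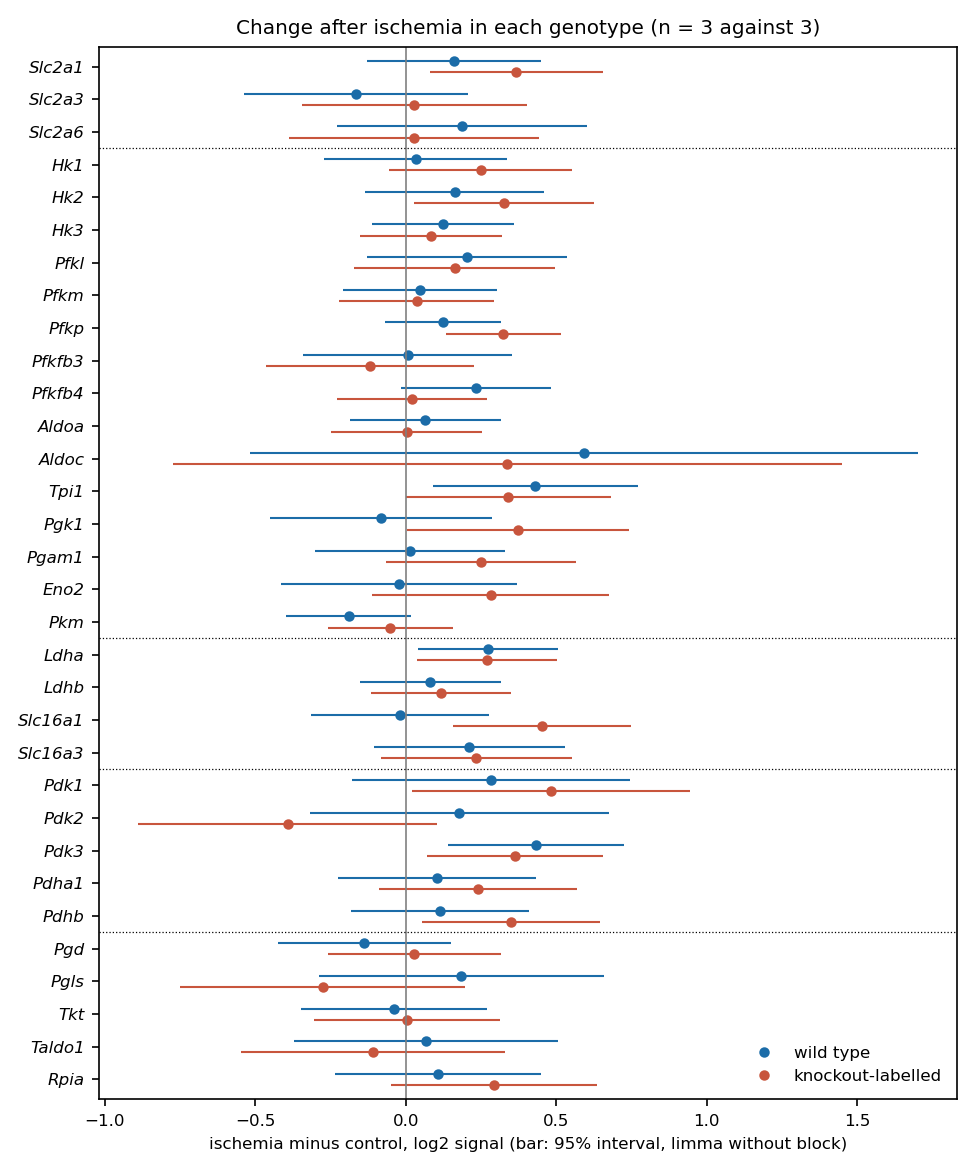
Change after ischemia (log2 signal, ischemia minus control) of the 32 tested genes in wild-type (blue) and knockout-labelled (red) cells, 3 against 3 arrays each, with 95% intervals of the limma fit without pairing; dotted lines separate the 5 steps. Most points lie right of 0 (25 for wild type, 27 for knockout-labelled cells), the 2 intervals of each gene overlap, and Pdk2, Pgk1, Pgls and Slc16a1 have the points farthest apart.

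Whether the genotypes differed in their response was tested directly, and none of the 32 genes passed. Limma called 0 of them, and 0 of all genes (0%), without pairing, with 1 at an unadjusted p under 0.05 (2.90% of all genes), and 0 with pairing (background 0.308%), with 4 at an unadjusted p under 0.05 (8.45%). Those 4 were Pdk2, Pgk1, Pgls and Slc16a1. Pdk2, the widely expressed pyruvate dehydrogenase kinase, was at 8.07, 7.43 and 7.79 in wild-type control, 7.93, 7.69 and 8.21 in wild-type ischemia, 7.84, 8.01 and 8.44 in knockout-labelled control and 7.41, 7.52 and 8.17 in knockout-labelled ischemia arrays. Its groups overlapped in both genotypes; the change was 0.18 for wild type and -0.39 for knockout-labelled cells, a difference of -0.57 (paired interval -0.91 to -0.23, adjusted p = 0.296, limma).

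Pgk1 was at 11.25, 11.55 and 11.22 in wild-type control, 11.25, 11.54 and 10.99 in wild-type ischemia, 11.52, 11.26 and 10.97 in knockout-labelled control and 11.80, 11.61 and 11.44 in knockout-labelled ischemia arrays. It was higher in all 3 knockout-labelled pairs and in 1 wild-type pair, by 0.004, and the difference of the changes was 0.45 (0.16 to 0.74, adjusted p = 0.355). Pgls, the lactonase of the oxidative pentose phosphate branch, was at 8.66, 8.38 and 8.46 in wild-type control, 8.72, 8.54 and 8.79 in wild-type ischemia, 8.63, 8.94 and 9.48 in knockout-labelled control and 8.52, 8.48 and 9.21 in knockout-labelled ischemia arrays. It was higher in the 3 wild-type pairs and lower in the 3 knockout-labelled pairs, with a difference of -0.46 (-0.77 to -0.15, adjusted p = 0.406). For Slc16a1 the difference was 0.47 (0.15 to 0.79, adjusted p = 0.409). Without pairing, limma gave an adjusted p near 1 for all 4.

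The genotypes were then compared within each condition, where the array numbers do not pair the samples. In control cells limma called 0 of the 32 genes (background 0.0589%), and 3 had an unadjusted p under 0.05 (7.14% of all genes). Knockout-labelled minus wild type, these were Pgls at 0.52 (interval 0.04 to 0.99), Hk2 at -0.39 (-0.69 to -0.09) and Hk3 at 0.25 (0.01 to 0.48), with adjusted p-values of 0.686, 0.628 and 0.689. Hk3 was higher without overlap, at 10.66 to 10.81 in wild-type and 10.85 to 11.17 in knockout-labelled control arrays, and Slc2a6 lower without overlap, at 8.68 to 9.05 and 8.35 to 8.60. These were 1 of 32 in each direction, against 5.37% and 4.52% of all genes.

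After ischemia limma again called 0 of the 32 (background 0.714%), with 3 at an unadjusted p under 0.05 (8.35% of all genes). Knockout-labelled minus wild type, Slc2a1 was at 0.39 (0.10 to 0.68, adjusted p = 0.358), Pfkfb4 at -0.34 (-0.59 to -0.09, adjusted p = 0.339) and Slc2a6 at -0.46 (-0.87 to -0.04, adjusted p = 0.526). Slc2a1, Hk3, Pgam1 and Tkt, 4 genes, were higher in the knockout-labelled arrays without overlap, and Slc2a6, Hk2 and Pfkfb4, 3 genes, were lower (8.38% and 8.07% of all genes). The median genotype difference of the 32 genes was -0.05 in control and 0.07 after ischemia, and without wild-type ischemia array 2 the latter was -0.02.

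A second list held 48 further genes of the same routes, among them other transporters, isoenzymes, pyruvate carriers and regulators; 44 had a probe set and 37 were tested. Without pairing limma called 0 of them in each of the 6 comparisons, with 8 at an unadjusted p under 0.05 for ischemia in the wild type (14.7% of all genes), 2 in the knockout-labelled cells (8.73%) and 9 for the average (21.2%). In the paired fit 3 of the 37 were higher and 2 lower when averaged over the genotypes, against 9.11% and 3.35% of all genes. Bpgm, which makes 2,3-bisphosphoglycerate, was higher by 0.31 (adjusted p = 0.0240), the glucose 6-phosphatase G6pc3 by 0.29 (0.0173) and Mpc1, a subunit of the mitochondrial pyruvate carrier, by 0.28 (0.0278). The fructose transporter Slc2a5 fell by 0.28 (0.0286) and Pcx, which turns pyruvate into oxaloacetate, fell by 0.32 (0.0146). Slc2a5 was dim, with a mean of 5.67, near the dim limit of 5.36 and below the median of every array. G6pc3 also passed in the wild type alone in the paired fit (0.40, adjusted p = 0.0304), where 3.73% of all genes did, at 8.64, 8.40 and 8.53 in control and 9.04, 8.76 and 8.99 in ischemia arrays without overlap, and in the knockout-labelled cells its change was 0.17. The median averaged change of the 37 was 0.02, with 20 above 0 and 17 below.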

How the data were processed

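RNA of 12 microglia samples was hybridised to Affymetrix Mouse Gene 1.0 ST arrays, 1 per sample. The authors deposited a log2 signal for each probe set, made with Affymetrix Expression Console 1.1 and RMA (background correction, quantile normalization, summarisation), per the submitters' processing notes; they ran from 1.25 to 14.5. This scaling removes differences in total RNA, and the small number of arrays limits the precision. The platform annotation gives 1 symbol to 21789 of 35557 probe sets and several to 1621, which stayed unnamed, and does not list 12147; Entrez identifiers updated 21698 symbols. The brightest probe set stood for each gene (999 genes had several), and genes with a mean at or under the 30th percentile of all probe sets (5.36) were left out.

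All genes were fitted by a linear model of the 4 group means with limma 3.58.1 in R 4.3.3 (lmFit, eBayes, two-sided), with Benjamini-Hochberg adjustment over 15273 genes and a threshold of 0.05. Pairing was checked on deviations from the group means. Same-numbered control and ischemia arrays correlated at 0.485, 0.735 and 0.478 in the wild type and 0.356, 0.316 and 0.490 in the knockout-labelled cells, and between genotypes at -0.332 to 0.326. Differently numbered ones within a genotype ranged from -0.619 to 0.399 (wild type) and -0.439 to 0.219 (knockout-labelled). The value of 0.399, for wild-type control array 1 and ischemia array 3, was near some same-numbered values. Deviations within a group sum to 0, so high same-numbered correlations push the differently numbered ones down, and part of the contrast is built in. The numbers were therefore taken to pair arrays within a genotype, from the data and not from the labels, and a replicate block within genotype gives the paired fit. Intervals are 95% intervals of the fit named. The averaged change gives each genotype equal weight.

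The members and lists were chosen with earlier results of these data known. Signals on each array are given for genes of the 37 called in any comparison and for the 3 of each step with the largest averaged change, in either direction. Pdk2 and Pgk1 were added after their values were seen, because their responses differed most between genotypes, as was G6pc3 of the second list, whose other called genes are given without array signals. Both fits of the averaged comparison were run on simulated data of 15273 genes. The fit without pairing recovered 71% of genes changed by 0.5 and 92% of genes changed by 1, with 1 false call. The paired fit recovered 85% and 96%, with 7 false calls. A shared pair effect was built into every simulated gene, and the genes were drawn independently. The false calls therefore do not measure the error in these data. The gap between the fits depends on how alike the arrays of a pair were made, and other settings were not tested. Recovery of smaller changes, such as the 0.22 to 0.46 of the 7 genes called in the paired fit, was not tested. Promoter windows came from RefSeq (GRCm38.p6). Alternatives were the arrays in the fit, the block, the dim filter, the normalization, the probe set rule, an intensity trend and leaving out each array or pair; those that combine the paired fit with another setting or leave out a pair were chosen after seeing the data.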

Additional observations from a re-analysis of the deposited data

How the results depend on the processing

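Outside the paired fit, 0 of the 32 genes were called in the 6 comparisons under each alternative run, the replicate block with 3 levels and each left-out array included, and no called gene changed direction under an alternative. Pairing moved the counts most. The replicate block within genotype raised genes called from 2 to 570 in the wild type, from 0 to 99 in the knockout-labelled cells, from 1 to 1904 for the average, with 7 of the 32 genes, and from 0 to 47 for the difference of responses. The replicate block with 3 levels over all arrays gave 1 gene in the knockout-labelled cells, 7 for the average, 31 for genotype in control and 236 for genotype after ischemia. A fit of only the arrays compared gave 1 gene in the wild type and 0 for genotype in control. After quantile normalization of the deposited values 1 gene was called in the wild type and the members' median there was 0.019, with all genes at -0.03. Leaving out 1 array gave 1 to 79 genes in the wild type, 0 to 315 for the average, 0 to 23 and 25 to 158 for genotype in control and after ischemia, and 0 to 1 for the difference; the members' median ran from 0.16 to 0.24 in the knockout-labelled cells, -0.023 to 0.10 for genotype after ischemia and 0.0054 to 0.11 for the difference, with the highest of these without wild-type ischemia array 1.

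Within the paired fit, members called when averaged were 3 after quantile normalization and 12 after median centring (1157 and 2581 over all genes). In the knockout-labelled cells 2 were called with the dim filter at the 50th percentile, 2 after centring and 3 with an intensity trend, and in the wild type 3 after centring. Leaving out 1 pair gave 0 to 2 members in the wild type (143 to 767 over all genes), 0 to 3 in the knockout-labelled cells (2 to 753) and 1 to 7 for the average (371 to 2889). The cause of these shifts was not tested, apart from the fewer arrays where a pair was left out. All changes of the listed genes were under 1 log2 unit, and most of their intervals without pairing included 0, so a gene that missed the threshold is not shown to be unchanged.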

Other observations

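Among the 37 tested genes of the second list, Pgm1, the phosphoglucomutase that links glycogen to glucose 6-phosphate, had the smallest adjusted p between genotypes; it was picked out after its values were seen. Its signal was 8.97, 9.20 and 9.02 in wild-type control and 8.70, 8.63 and 8.63 in knockout-labelled control arrays, and 9.19, 9.20 and 9.31 against 8.86, 8.77 and 8.81 after ischemia. The groups did not overlap in either condition. The difference, knockout-labelled minus wild type, was -0.41 in control (adjusted p = 0.218) and -0.42 after ischemia (adjusted p = 0.0582, limma), and neither passed the threshold.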
